A study of Arabidopsis thaliana with 17 samples.

Results

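RR5 (AT3G48100, also written ARR5) and ARR6 (AT5G62920) are type-A response regulator genes of Arabidopsis thaliana, and their transcripts were followed here in plants that lack the selective autophagy receptor NBR1. Each gene was represented by 1 probe set (13457365 for RR5 and 13542701 for ARR6), so the pair makes up 2 of the 18107 probe sets that had a gene name and were tested, among 28583 on the array. RR5 lies on chromosome 3 and ARR6 on chromosome 5. Both probe sets were named through a supplementary list of genes that responded in roots of an NBR1 overexpressor. The pair was chosen from measured values of the arrays described here, on which earlier results had placed both genes high in roots of the deletion lines. For this reason the root differences between the deletion lines and WT are given as a description without a test.

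The plants were Col-0 WT and the homozygous deletion lines KO1 and KO3, which carry CRISPR/Cas9 deletions in NBR1 and from which the transgene had been crossed out. All plants were 4 weeks old and grew untreated in hydroponic boxes under short days in 0.5 x Hoagland medium. Each plant was divided into shoot and root, and material of several plants was pooled for each RNA, so an array stands for a pool. KO1 roots, KO3 roots, WT shoots, KO1 shoots and KO3 shoots had 3 arrays each and WT roots had 2 (replicates 1 and 3), which makes 8 root and 9 shoot arrays. The samples are titled biological replicates, with no statement of whether they came from separate cultures, so that p-values measure the spread between these pools. In whole organs, fewer cells of a type and less RNA per cell cannot be told apart.

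Cytokinins are plant hormones that are perceived by histidine kinase receptors. The signal passes through phosphotransfer proteins to the nucleus, where type-B response regulators activate transcription. Type-A response regulators, RR5 and ARR6 among them, are rapid primary targets of this activation and feed back negatively on the same pathway, and their transcripts are widely used as readouts of cytokinin signalling. In roots cytokinin restrains meristem size and lateral root initiation. NBR1 is a receptor that carries ubiquitinated cargo to autophagosomes.

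The guides designed against NBR1 are shown because the deletions that define the KO lines were made with such guides. They are the 20 base target parts of the cloned guide oligonucleotides, written 5′ to 3′ without the cloning overhangs and without the PAM. Which guides gave which line was not given in the sources used here.
NBR1 guide G2: ggaaggaacatccctgctca
NBR1 guide G3: aattgagagctgccctagct
NBR1 guide G144: ttacgagaaaagcggattac

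The NBR1 transcript followed the labels on every array. Its RMA log2 signal was 7.23 to 7.41 in WT roots and 3.26 to 4.59 on the 6 KO root arrays, and it was 5.73 to 6.44 in WT shoots and 1.52 to 1.81 on the 6 KO shoot arrays. The array medians were 2.61 to 2.67 in roots and 1.72 to 1.85 in shoots, so the organs were not on a visibly shared scale, and levels are compared within an organ only. KO1 shoots replicate 1 had a narrower spread of signals than the other shoot arrays (SD over probe sets 1.41 against 1.94 to 2.07), and WT roots replicate 1 had the lowest mean correlation with the other root arrays (0.978 against 0.983 to 0.987). Of the organ markers, the light-harvesting genes LHCB4.1 and LHCB4.2 averaged 1.92 to 2.82 over the root arrays and 6.43 to 8.78 over the shoot arrays. The 4 measured root markers (PHT1;1, PLT2, EXPA7 and PRP3) averaged 4.37 to 5.03 in roots and 1.10 to 1.37 in shoots.

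In roots both genes were higher on all 6 KO arrays than on either WT array. The RR5 log2 signal was 3.15 in WT replicate 1 and 4.16 in WT replicate 3. In KO1 roots it was 6.10, 5.58 and 5.64 in replicates 1 to 3. In KO3 roots it was 5.52, 5.82 and 5.22. The lowest KO array thus stood 1.06 above the higher WT array on the log2 scale, while the WT arrays themselves lay 1.01 apart.

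The mean RR5 signal was 3.66 ± 0.71 (SD, n = 2) in WT roots, 5.77 ± 0.28 (SD, n = 3) in those of KO1 and 5.52 ± 0.30 (SD, n = 3) in those of KO3. Relative to WT this was a log2 fold change of 2.12 for KO1 (4.34-fold) and of 1.87 for KO3 (3.64-fold), each with a standard error of 0.29. Ordered by rise alone among the 18107 probe sets, with falls such as that of NBR1 not counted, RR5 ranked 1 for KO1 and 3 for KO3. Among all probe sets on an array, its signal lay at the 57.3 and 69.1 percentile on the WT root arrays and between the 82.0 and the 90.9 percentile on the KO root arrays.

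ARR6 gave the same order of groups with smaller differences. Its log2 signal was 4.83 in WT roots replicate 1 and 5.48 in replicate 3. KO1 roots gave 6.78, 6.53 and 6.40 in replicates 1 to 3. KO3 roots gave 6.03, 6.26 and 6.05. No KO array overlapped the WT arrays, and the lowest KO array was 0.55 above the higher WT array, with 0.65 between the WT arrays.

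The mean ARR6 signal was 5.16 ± 0.46 (SD, n = 2) in WT roots, 6.57 ± 0.19 (SD, n = 3) in KO1 roots and 6.11 ± 0.13 (SD, n = 3) in KO3 roots. Relative to WT this was a log2 fold change of 1.42 for KO1 (2.67-fold) and of 0.96 for KO3 (1.94-fold), each with a standard error of 0.20. Its rank by rise was 16 for KO1 and 89 for KO3. ARR6 lay at the 79.7 and 85.0 percentile on the WT root arrays and between the 90.1 and the 94.9 percentile on the KO root arrays. Both KO lines were set against the same WT arrays, so their differences are not independent of each other.

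As background to these values, 11.4% of the probe sets tested had every KO1 root array above both WT root arrays, and 12.4% had every KO3 root array above both. The limma threshold (adjusted p under 0.05) was passed upwards by 16 probe sets in KO1 roots (0.0884%) and by 22 in KO3 roots (0.121%). Since the pair was chosen with these comparisons in view, no call is given for RR5 or ARR6 in them.

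**Figure D1:**
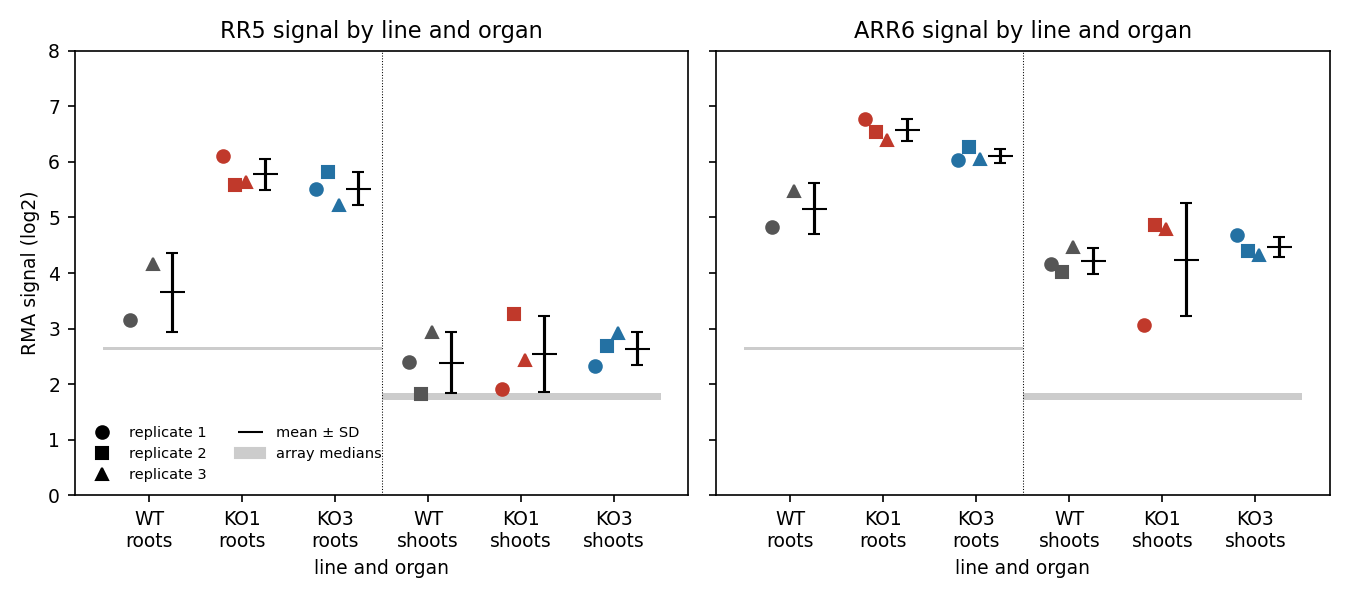
RMA log2 signal (vertical axis) of RR5 and ARR6 in WT, KO1 and KO3 roots and shoots; each symbol is 1 array, the black bar is the group mean ± SD, and the grey band spans the array medians of the organ. All 6 KO root arrays lie above both WT root arrays for both genes, whereas in shoots the lines overlap and 1 KO1 array is low for ARR6 (3.07).

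The size of the root differences rested on the WT arrays. WT roots replicate 1 was the lower WT array for both genes, and the difference between the WT arrays was matched or exceeded by 1.18% of all probe sets for RR5 and 7.30% for ARR6, against a median absolute difference of 0.22. Without WT roots replicate 1 the RR5 log2 fold change was 1.61 in KO1 and 1.36 in KO3, and that of ARR6 was 1.09 and 0.63. Without WT roots replicate 3 the corresponding values were 2.62 and 2.37 for RR5 and 1.74 and 1.28 for ARR6. Leaving out a KO array or changing the normalisation moved the 4 differences less than this, as the plot of root change by setting shows.

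**Figure D2:**
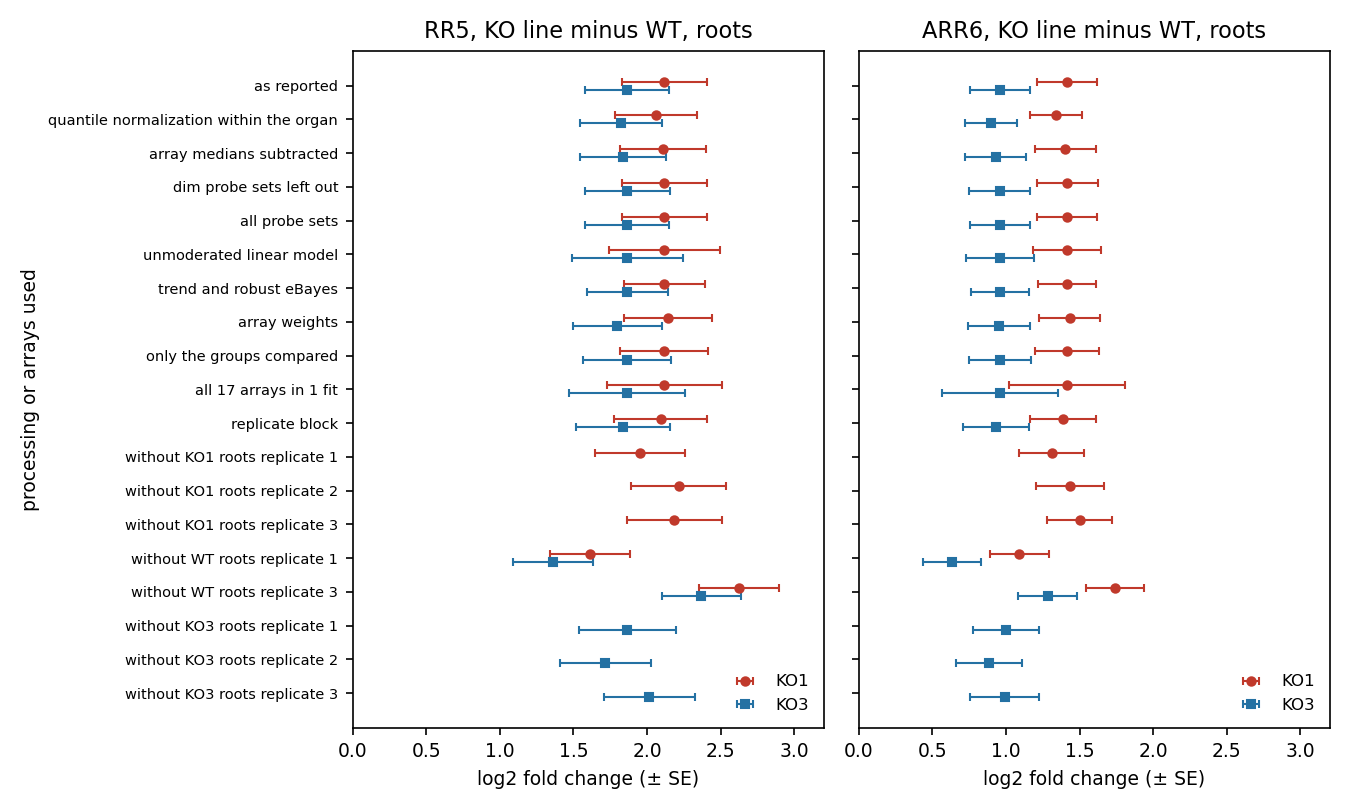
Log2 fold change of RR5 and ARR6 in roots, KO line minus WT (horizontal axis, points with ± SE), as reported and under each other processing or with 1 array left out (vertical axis). All values are above 0, and the lowest and highest come from leaving out one or the other WT root array (RR5 in KO1 1.61 and 2.62). Leaving out a single array could not bring a value below 0, since no KO root array overlapped the WT root arrays.

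KO1 and KO3 roots were next compared with each other. The difference in this contrast does not use the WT arrays. Its interval and p-value do, through the estimate of spread shared by all lines. The KO root arrays are among the values on which the pair was chosen, so this contrast is not independent of that choice. RR5 differed by 0.25 on the log2 scale (KO1 minus KO3, 95% interval -0.31 to 0.82, adjusted p = 0.997 from limma), and the arrays of the lines overlapped. ARR6 was higher in KO1 by 0.46 (95% interval 0.06 to 0.85), and the lowest KO1 array (6.40) was above the highest KO3 array (6.26). The share of all probe sets separated in this way is not given here. The ARR6 difference did not pass the threshold over all probe sets (limma, adjusted p = 0.997). No probe set did (0%), with 595 at an unadjusted p under 0.05 in limma and 0 called by the unmoderated linear model. In roots the order of the means was therefore WT, KO3, KO1 for both genes, and the neighbours KO3 and KO1 were not told apart.

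In shoots neither gene separated the lines. The RR5 log2 signal was 2.40, 1.83 and 2.94 in WT replicates 1 to 3. It was 1.91, 3.27 and 2.44 in KO1 and 2.32, 2.68 and 2.92 in KO3. These values lie between the 50.3 and the 73.1 percentile of all probe sets, and each line overlapped the other lines.

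The means in shoots were 2.39 ± 0.56 in WT, 2.54 ± 0.69 in KO1 and 2.64 ± 0.30 in KO3 (SD, n = 3 each). The log2 fold change was 0.15 in KO1 (95% interval -0.70 to 1.00, adjusted p = 0.925 from limma) and 0.25 in KO3 (95% interval -0.60 to 1.10, adjusted p = 0.998). The intervals include changes of up to 2.01-fold in KO1 and 2.15-fold in KO3, so that a moderate rise of RR5 in shoots was not detectable with 3 arrays a line.

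The ARR6 log2 signal in shoots was 4.16, 4.01 and 4.47 in WT replicates 1 to 3. KO1 gave 3.07, 4.86 and 4.80, and KO3 gave 4.68, 4.40 and 4.33. KO1 shoots replicate 1 was the lowest of the 9 arrays and the other KO1 arrays were the highest, which gave KO1 shoots a mean of 4.24 ± 1.02 (SD, n = 3). By rank among all probe sets ARR6 was also lowest on that array, at the 79.27 percentile against 80.67 to 82.74 in WT shoots. WT shoots averaged 4.21 ± 0.23 and KO3 shoots 4.47 ± 0.19 (SD, n = 3 each).

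The ARR6 log2 fold change in shoots was 0.03 in KO1 (95% interval -0.93 to 0.99, adjusted p = 0.990 from limma) and 0.26 in KO3 (95% interval -0.71 to 1.22, adjusted p = 0.998). Without KO1 shoots replicate 1, the array with the narrow spread, the difference in KO1 was 0.62 for ARR6 and 0.46 for RR5, still short of the threshold. On the same array the light-harvesting genes averaged 6.43, against at least 8.37 in WT shoots. By rank among all probe sets they were not low there. LHCB4.1 lay at the 98.19 percentile (96.85 to 97.07 in WT shoots) and LHCB4.2 at the 98.65 percentile (98.29 to 98.45 in WT shoots). Exact permutation tests of the means in shoots gave p = 0.7 for RR5 in either line, p = 1 for ARR6 in KO1 and p = 0.3 for ARR6 in KO3 (two-sided), in a design whose smallest possible p is 0.1. Over all probe sets, 0.309% passed the limma threshold in KO1 shoots and 0.144% in KO3 shoots.

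KO1 and KO3 shoots did not differ detectably in either gene. The difference (KO1 minus KO3) was -0.10 for RR5 (95% interval -0.95 to 0.75, adjusted p = 0.958 from limma) and -0.23 for ARR6 (95% interval -1.19 to 0.74, adjusted p = 0.899). No probe set passed in this contrast (0%), with 1211 at an unadjusted p under 0.05 in limma and 0 called by the unmoderated linear model.

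The KO effects in roots were then set against those in shoots. The root effect minus the shoot effect of RR5 was 1.97 (standard error 0.53) in KO1 and 1.62 (standard error 0.53) in KO3 on the log2 scale. RR5 signals in shoots were low (1.83 to 3.27, beside array medians of 1.72 to 1.85), so a shoot effect may not have been seen. For ARR6 it was 1.39 (standard error 0.53) in KO1 and 0.70 (standard error 0.53) in KO3. The ARR6 value in KO3 had a 95% interval of -0.42 to 1.82, which includes 0, and it was 0.38 without WT roots replicate 1. These differences contain the root contrasts on which the genes were chosen and were not tested. Without KO1 shoots replicate 1 the ARR6 value in KO1 was 0.80.

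Within an organ the genes tended to be high or low on the same arrays. On the 6 KO root arrays Pearson's r between the log2 signals of RR5 and ARR6 was 0.782 and Spearman's rho 0.714, and on the 9 shoot arrays they were 0.658 and 0.650. Without the 2 arrays farthest from the median of RR5, r was 0.137 over 4 KO root arrays and 0.600 over 7 shoot arrays. The root relation therefore rested on 2 arrays. The points share array and RNA pool, and these values are given as a description. RR5 and ARR6 are close paralogues, and whether a probe of one gene binds the transcript of the other was not tested here; no other probe set had the same 17 values as either.

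**Figure D3:**
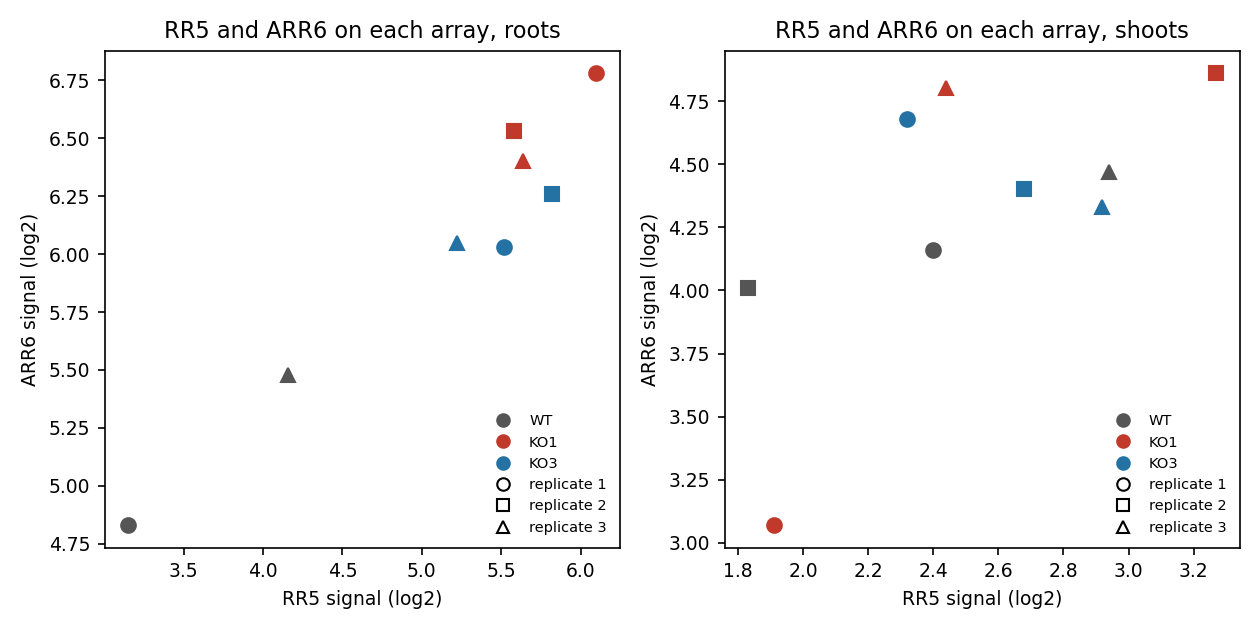
ARR6 log2 signal (vertical axis) against RR5 log2 signal (horizontal axis) on each root array and each shoot array, coloured by line with the symbol showing the replicate number; axes differ between panels and do not start at 0. WT root arrays sit at the lower left (RR5 3.15 and 4.16) and KO1 shoots replicate 1 at the lower left of the shoot panel.

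The remaining type-A response regulators showed whether the pattern extended through the family. Of the 8 other listed members, 4 had a single-gene probe set: ARR4, ARR8 (named RR3 in the reference table), ARR15 and ARR16. ARR4 showed the same order of KO and WT root arrays as the pair. Its log2 signal was 6.01 and 6.38 on the WT root arrays, 7.54, 7.14 and 7.40 for KO1 and 7.18, 7.08 and 7.35 for KO3, so all 6 KO arrays were above both WT arrays.

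ARR4 was upregulated in KO1 roots, by 1.17 on the log2 scale (standard error 0.17, limma adjusted p = 0.0412). KO3 roots exceeded WT by 1.01 with the same standard error, which did not pass (adjusted p = 0.0564). Without WT roots replicate 1 the differences were 0.98 and 0.82, and the call in KO1 was lost. Shoots gave 7.56, 6.88 and 7.31 in WT, 5.28, 7.72 and 8.03 in KO1 and 7.71, 7.95 and 7.78 in KO3, with adjusted p = 0.926 and 0.998 (limma). As with ARR6, KO1 shoots replicate 1 had the lowest log2 signal of the 9 arrays. By rank among all probe sets ARR4 was not low there, at the 96.28 percentile against 94.74 to 96.18 in WT shoots. ARR6 was low there by rank as well, at the 79.27 percentile. The KO3 shoot arrays all lay above the WT shoot arrays, with a log2 fold change of 0.56 that did not pass. Of the 919 probe sets on the list of overexpressor-responsive root genes, 51 were separated in this way. The share over all probe sets is not given here.

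The other measured type-A genes did not pass the threshold in any of the 4 comparisons of a KO line with WT. ARR8 had a log2 signal of 5.66 and 6.25 on the WT root arrays, 6.18, 5.88 and 6.53 for KO1 and 6.56, 6.77 and 6.25 for KO3. The groups overlapped, and it exceeded WT by 0.24 in KO1 (limma, adjusted p = 0.838) and by 0.57 in KO3 (adjusted p = 0.401). ARR15 was below the array median on all 8 root arrays (0.97 to 2.49), with log2 fold changes of 0.49 and 0.65 (adjusted p = 0.668 and 0.403). ARR16 was also below the median on all 8 (0.89 to 1.34), with log2 fold changes of 0.08 and 0.09.

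Counted over these 4 genes, 1 passed upwards and none downwards in KO1 roots, and none passed in KO3 roots. The share of all probe sets that passed upwards was 0.0884% in KO1 roots and 0.121% in KO3 roots. Their median log2 fold change was 0.37 (KO1 roots) and 0.61 (KO3 roots), beside 0.00 over all probe sets tested in each. In shoots it was -0.34 in KO1 and 0.18 in KO3, beside -0.06 and 0.00 over all probe sets, and none of the 4 genes passed. The sign in KO1 shoots rested on replicate 1, without which the median was 0.13, beside -0.02 over all probe sets.

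Elsewhere in the pathway, few genes could be read. None of the 9 listed receptors and phosphotransfer proteins, none of the 4 transport genes and none of the 12 cytokinin-induced transcription factors and targets had a single-gene probe set among those named. Of the 11 type-B response regulators, the transcriptional activators, ARR18, ARR19 and ARR21 were measured and lay below the array median on all root arrays. The log2 fold change in roots was -0.18 in KO1 and -0.21 in KO3 for ARR18, -0.08 and -0.27 for ARR19, and -0.14 and 0.24 for ARR21, and none passed the threshold.

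In cytokinin synthesis, 2 of 19 listed genes were measured. CYP735A2, a cytochrome P450 that hydroxylates the side chain to make trans-zeatin type cytokinins, was upregulated in roots of both lines. Its log2 signal was 4.60 and 4.58 on the WT root arrays, 5.76, 5.39 and 5.62 for KO1 and 5.79, 5.76 and 5.51 for KO3, without overlap of KO and WT arrays. KO1 exceeded WT by 1.00 on the log2 scale (adjusted p = 0.0488, limma) and KO3 by 1.10 (adjusted p = 0.0288), each with a standard error of 0.16.

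In contrast to RR5 and ARR6, the CYP735A2 values did not depend on which WT array was used, at 0.99 and 1.01 for KO1 and 1.09 and 1.11 for KO3 with one or the other left out. With 1 WT array the threshold was not passed in either line. In shoots CYP735A2 lay at 1.12 to 1.52, below the median of every array, and its difference was 0.19 in KO1 and 0.00 in KO3. At so low a signal a shoot effect may not have been seen. A test of organ difference therefore cannot show that the CYP735A2 effect is limited to roots. The root effect of CYP735A2 exceeded its shoot effect by 1.10 for KO3 (adjusted p = 0.0441, limma) and by 0.81 for KO1 (adjusted p = 0.102), with a standard error of 0.19 for both. The KO3 call held under 4 of 8 other ways of processing, and with 1 of 11 single arrays left out. Of all probe sets, 0.0994% passed this test of organ difference in KO3 and 0.37% in KO1.

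IPT3, an isopentenyltransferase that starts cytokinin synthesis, showed overlapping lines in roots, at 5.11 and 5.23 in WT, 5.14, 5.14 and 5.23 in KO1 and 5.36, 4.56 and 4.93 in KO3. Its log2 fold change was 0.00 in KO1 and -0.22 in KO3 (adjusted p = 0.740 from limma). In shoots the 3 KO1 arrays (1.63, 1.94 and 2.15) were below the WT arrays (2.49 to 2.57). The log2 fold change of -0.62 did not pass (limma, adjusted p = 0.375). Of the 919 probe sets on the list of overexpressor-responsive root genes, 125 had every KO1 shoot array below every WT shoot array. The share over all probe sets is not given here.

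In cytokinin breakdown and conjugation, 3 of 10 listed genes were measured. CKX4, a cytokinin oxidase that degrades the hormone, had a log2 signal of 5.12 and 5.20 on the WT root arrays, 5.50, 5.41 and 6.21 for KO1 and 6.13, 5.99 and 6.61 for KO3. Every KO array was above both WT arrays, but the differences of 0.55 for KO1 and 1.08 for KO3 did not pass (adjusted p = 0.603 and 0.132 from limma). UGT76C2, a glucosyltransferase that inactivates cytokinins, differed by 0.16 for KO1 and 0.24 for KO3 in roots, with groups that overlapped.

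Over the 12 measured cytokinin genes besides the pair, 2 passed upwards in KO1 roots (ARR4 and CYP735A2) and 1 in KO3 roots (CYP735A2). Of all probe sets, 0.0884% passed upwards in KO1 roots and 0.121% in KO3 roots. None passed downwards in roots, where 0.0387% of all probe sets did so in KO1 and 0.0939% in KO3, and none passed in shoots in either direction. The median log2 fold change in roots was 0.16 in KO1 and 0.24 in KO3. Of the 12, 5 stand on the same list of overexpressor-responsive root genes that named the pair (ARR4, ARR8, IPT3, CYP735A2 and CKX4), and are not a random sample of the pathway. Their median was 0.55 for KO1 roots and 1.01 for KO3. The other 7 had a median of 0.08 and 0.09, none passed, and only ARR15, ARR16, UGT76C1 and UGT76C2 among them had a positive value in KO1 roots. These 7 were dim in roots, so a change in them may not have been seen. UGT76C1 was above the array median on 2 of the 8 root arrays and the rest on none, whereas the 5 were above it on all 8. The calls in roots depended on single arrays: with any KO1 array or WT roots replicate 1 left out, 0 of the 12 passed in KO1, and with any KO3 array or WT roots replicate 1 left out, 0 passed in KO3.

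**Figure D4:**
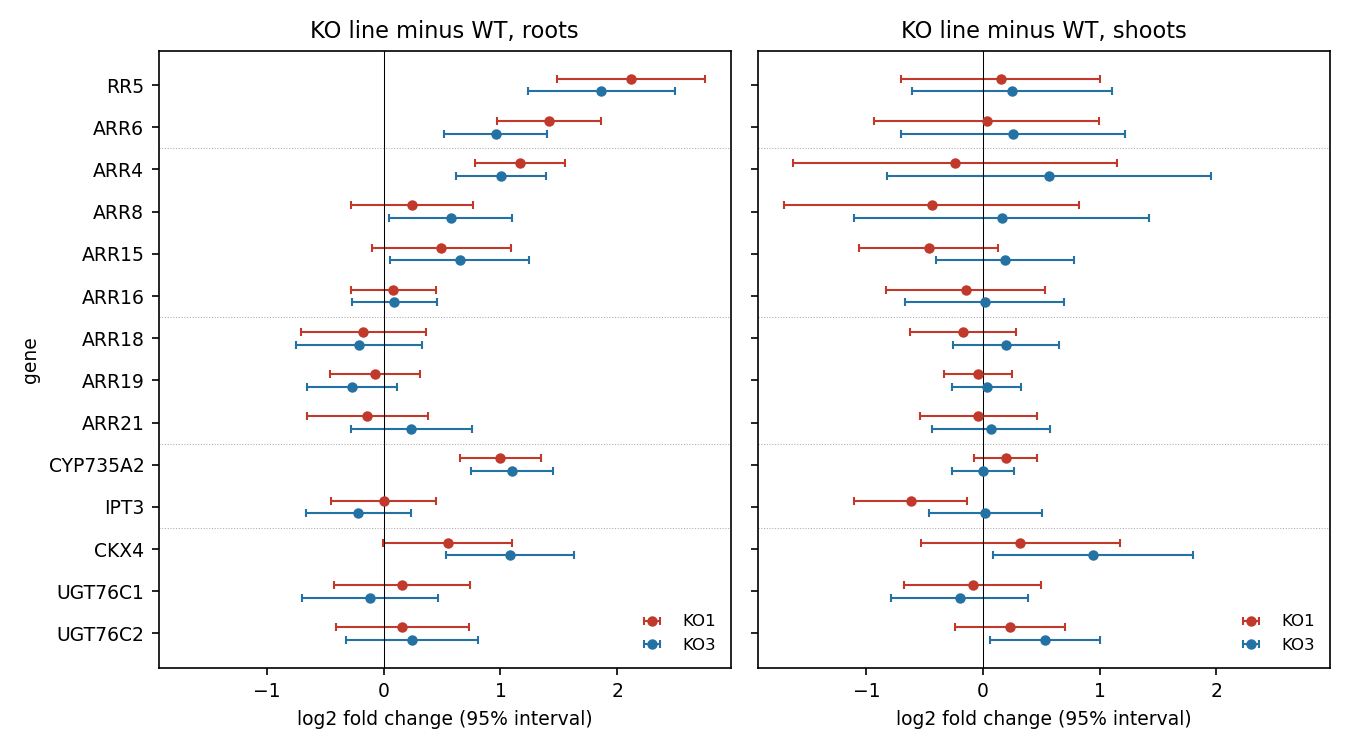
Log2 fold change (horizontal axis, points with unadjusted 95% intervals) of KO1 and KO3 against WT in roots and in shoots for all 14 measured cytokinin genes, grouped by dotted lines into RR5 and ARR6, other type-A regulators, type-B regulators, synthesis, and breakdown with conjugation. In roots RR5, ARR6, ARR4 and CYP735A2 lie at or near 1 or above in both lines (lowest 0.96, ARR6 in KO3), while in shoots all intervals include 0 but those of IPT3 in KO1 (-0.62) and of CKX4 (0.94) and UGT76C2 (0.53) in KO3, which did not pass the adjusted threshold.

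Finally, the genes whose signals followed the pair most closely were listed over all 17 arrays, after the mean of each organ had been subtracted and among 9485 single-gene probe sets that were not dim in both organs. For RR5 they were AT4G20320 (r = 0.909), AT5G56160 (0.871), AT5G39990 (0.854, the glucuronosyltransferase GlcAT14A), AT3G12180 (0.851) and AT2G41150 (0.845). Their root differences from WT were 0.41 to 1.21 in KO1 and 0.44 to 1.10 in KO3 on the log2 scale, all smaller than those of RR5. In shoots they stayed between -0.12 and 0.18.

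For ARR6 the 5 closest were YLS5 (r = 0.890), ARR4 (0.883), COR413-PM1 (0.871), AT3G60075 (0.859, a transfer RNA gene in the reference table) and KUP9 (0.854). Root differences of these 5 from WT were 0.48 to 1.49 in KO1 and 0.31 to 1.29 in KO3. COR413-PM1 exceeded ARR6 in both lines (1.49 and 1.29), and AT3G60075 (1.18) and ARR4 (1.01) exceeded it in KO3. In likeness, ARR4 ranked 2 for ARR6, and it ranked 151 for RR5 (r = 0.662). The likeness of RR5 and ARR6 to each other was r = 0.835, which gave ARR6 rank 6 for RR5 and RR5 rank 7 for ARR6. CYP735A2 ranked 25 for RR5 (r = 0.765) but 2170 for ARR6 (r = 0.503). These correlations share arrays, RNA pools and the WT root arrays that were low for both genes, and carry no test.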

How the data were processed

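The authors hybridised the RNA to Affymetrix Arabidopsis Gene 1.1 ST arrays and deposited RMA log2 signals made with Transcriptome Analysis Console (TAIR10; versions not given in the sources used here), with 2 decimals. Of 28583 probe sets, 17504 were named by the platform table and 603 only by the supplementary lists; the 18107 named ones were tested. The reference table (TAIR10.1) served for names and chromosomes only. Members and gene lists were chosen with earlier results of these data known.

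Within an organ, the 3 lines were fitted together by limma 3.58.1 in R 4.3.3 (lmFit, eBayes). Benjamini-Hochberg adjustment was over all 18107 probe sets, with a threshold of 0.05. Root and shoot effects were compared in 1 fit of all 17 arrays, which treated root and shoot arrays as independent. Whether a root pool and a shoot pool shared plants is not stated in the sources used here. Correlation between root and shoot arrays was not checked. The fit was tested on simulated data. Exact permutation tests and figures used Python 3.11.15, SciPy 1.17.1 and matplotlib 3.10.9. Apart from RR5, ARR6 and NBR1, the measured type-A regulators, the cytokinin genes that passed the threshold and the 5 most alike were named. So were the 2 genes with the largest absolute mean root differences of each cytokinin list. ARR21 and UGT76C1, the remaining measured genes of their lists, and the organ markers were named as well. The number of arrays limits the precision. Alternatives were quantile normalisation, median subtraction, filters on dim and unnamed probe sets, unmoderated, trend and robust or weighted fits, other sets of groups, a replicate block, group medians and leaving out each array.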

Additional observations from a re-analysis of the deposited data

Results flagged for a closer look

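Of the cytokinin genes besides RR5 and ARR6, CYP735A2 in KO3 stood out because its effect differed between organs in a test of that difference: the root effect exceeded the shoot effect by 1.10 on the log2 scale (limma, adjusted p = 0.0441), with all 3 KO3 root arrays above both WT root arrays, and its shoot signals were below the median of every array. The call held under 4 of 8 other ways of processing and with 1 of 11 single arrays left out. With at most 3 arrays a group, Dixon's test of a single outlying value was not run.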

How the results depend on the processing

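The root rises of RR5 and ARR6 and their excess over shoots stayed above 0 under every alternative. For the root rises, leaving out a single array could not have turned the sign, since no KO root array overlapped the WT root arrays. The pair was also chosen for high signals in KO roots, so the kept sign is not a test of these rises. The excess of ARR6 in KO3 was 0.70, with an interval of -0.42 to 1.82 that includes 0, so its sign was not settled. Leaving out single arrays moved the RR5 log2 fold change in roots from 1.61 to 2.62 (KO1) and 1.36 to 2.37 (KO3), that of ARR6 from 1.09 to 1.74 and 0.63 to 1.28, the root minus shoot effect of RR5 from 1.46 to 2.47 and 1.11 to 2.12, and that of ARR6 from 0.80 to 1.71 (KO1) and 0.38 to 1.03 (KO3). In shoots, where no member passed, signs turned with single arrays: KO1 ranged from -0.22 to 0.47 (RR5) and -0.28 to 0.62 (ARR6), KO3 from -0.03 to 0.53 (RR5), and KO1 minus KO3 from -0.47 to 0.22 (RR5) and -0.54 to 0.36 (ARR6). KO1 minus KO3 in shoots also turned under quantile normalization (RR5 0.018, ARR6 0.158) and array weights (ARR6 0.25). The cause was not tested.

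Counts of probe sets called depended on the fit more than the members' values did. With all 28583 probe sets, 35 (KO1 roots), 70 (KO3 roots), 108 (KO1 shoots) and 53 (KO3 shoots) passed, against 23, 39, 56 and 26 as reported. In the same order the unmoderated linear model gave 1, 0, 2 and 1, array weights 15, 21, 144 and 104, only the groups compared 1, 12, 16 and 123, and all 17 arrays in 1 fit 8, 19, 435 and 97. Trend and robust eBayes gave 81 in KO3 roots, 99 in KO1 shoots and 51 in KO3 shoots. Quantile normalization gave 162 in KO1 shoots, 44 up and 118 down instead of 0 and 56, and 90 in KO3 shoots, 22 up and 68 down instead of 1 and 25. Leaving out single arrays gave 1 to 57 and 0 to 108 in roots of KO1 and KO3, and 24 to 180 and 2 to 21 in shoots.

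Of the 12 other cytokinin genes, 2 passed in KO1 roots and 1 in KO3 roots as reported. In KO1 roots 1 passed with quantile normalization, median subtraction, all probe sets or all 17 arrays in 1 fit. In KO3 roots 2 passed with quantile normalization, without dim probe sets or with trend and robust eBayes. In both lines 0 passed with the unmoderated model, array weights or only the groups compared, and 0 to 1 with single arrays left out.

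Same-numbered arrays correlated at -0.05 to 0.21 (roots) and -0.14 to 0.28 (shoots) in their deviations from group means, and nothing says that the numbers mark shared plants. A replicate block gave 1 cytokinin gene called in KO1 roots (ARR4), 3 in KO3 roots (ARR4, CKX4 and CYP735A2) and 31 probe sets called in KO1 shoots, and ended the organ difference call of CYP735A2 in KO3. That call was also lost with median subtraction, without dim probe sets and with trend and robust eBayes, and when any single array other than KO3 roots replicate 3 was left out.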
